A study of Mus musculus with 16 samples.

Results

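The vascular endothelium of mouse quadriceps muscle was followed through 10 genes that mark it, Flt1, Kdr, Pecam1, Cdh5, Tek, Tie1, Emcn, Eng, Vwf and Esam. They were taken by name, and GEO's platform annotation pairs 12 probes with them. A probe was kept where its detection p-value was under 0.05 on at least 4 of the 16 arrays. That value, from the scanner software, is the probability of a signal at least as high from background alone. A probe under 0.05 on an array is called above background there. Of the 12 probes 10 were kept, among 12364 kept probes in all, and they stand for 9 of the 10 genes and of the 8725 genes tested. All 9 passed on arrays of every group, so none entered through a single group.

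Endothelial cells line all blood vessels, and in skeletal muscle most of them form the capillaries between the fibres. Their marker genes encode receptors for the growth factors that keep vessels alive (Flt1, Kdr, Tek, Tie1, Eng), proteins of the contacts between neighbouring cells (Cdh5, Pecam1, Esam), a sialomucin of the cell surface (Emcn) and a clotting protein released into blood (Vwf). In RNA from whole muscle, fewer endothelial cells and less marker RNA per cell cannot be told apart.

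The RNA came from 4 groups of 4 Illumina arrays, all of adult mice on the FVB/n background given injections under the skin over 4 weeks. HSALR transgenic mice received antisense oligonucleotide (ASO) 445236, ASO 190401 or saline, and wild-type (WT) mice received saline. HSALR mice carry a human skeletal actin gene with a long CUG repeat, whose promoter is active in muscle fibres, and are used to model myotonic dystrophy. The labels name the oligos by number and do not say that each sample is a separate animal, so the spread behind each p-value is that of these samples and may be technical.

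Each array had 10835 to 11700 of 25697 probes above background. Before normalization, the 75th percentile of intensity was 102.8 to 120.1 on the HSALR saline arrays, below every array of the other groups. It was 132.9 to 151.7 under ASO 445236, 134.35 to 187.4 under ASO 190401 and 128.75 to 150.5 in WT. Normalization evens this out, so differences from HSALR saline depend on it. Precision is limited by how many arrays there are. The ASO 445236 and HSALR saline arrays shared 1 chip, and the ASO 190401 and WT arrays shared the other. ASO 445236 against HSALR saline and ASO 190401 against WT are therefore comparisons within a chip, while in the other 4 comparisons chip and group cannot be told apart. Levels are log2 normalized intensities, and values after ± are SD (n = 4) for levels and standard errors for log2 differences. Calls rest on the limma model, at an adjusted p under 0.05 over 8725 genes. The fast fibre markers, which define the labelled tissue, were measured in 10 of 10 cases, with summed intensities of 280445 to 307282 under ASO 445236, 287276 to 309527 under ASO 190401, 295109 to 302158 in HSALR saline and 305230 to 318886 in WT.

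Against WT, several endothelial markers were lower in both oligo groups. Under ASO 445236 4 of 9 were called lower and 0 higher (44.4% of the markers called), against a background of 11.3% of all genes called and 5.04% called lower. These were Tek, Tie1, Emcn and Vwf, and the 9 differences ran from -0.84 to -0.32 with a median of -0.66, beside a median of 0.0028 over all genes. Under ASO 190401, on the same chip as WT, 3 of 9 were called lower and 0 higher (33.3%), against 10.4% of all genes called and 5.31% called lower. These were Tek, Tie1 and Emcn, the differences ran from -0.79 to -0.13, and their median was -0.59 beside 0.026 over all genes. Within the 8 arrays of that chip alone the count was also 3, beside 3.92% of all genes called lower. The limma adjusted p there was 0.0459 for Tek, 0.025 for Tie1 and 0.0271 for Emcn. Both comparisons use the same WT arrays. Both also set HSALR mice given an oligo against WT mice given saline, so genotype and oligo cannot be told apart in them. In HSALR saline against WT 2 of 9, Tek and Vwf, were lower and 0 higher (22.2%), against 27.2% of all genes called and 13.1% called lower, so the share of markers called is no higher than that of genes in general. The median was -0.18 there, beside -0.017 over all genes, and 4 of the 9 differences were above 0.

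Against HSALR saline the oligo groups gave few calls. Under ASO 445236, within a chip, 1 of 9 was lower, Flt1, and 0 higher (11.1%), which is close to the 13.5% of all genes called (6.73% called lower). Within the 8 arrays of that chip alone it was again 1, Flt1 (limma adjusted p = 0.017), beside 7.6% of all genes called lower. The median difference was -0.52 beside 0.0095 over all genes, and 7 of the 9 had an unadjusted limma p under 0.05, as did 26.7% of all genes. Under ASO 190401 0 of 9 were called by limma, with a background of 15.8% of genes called and 7.71% called lower, a median of -0.49 beside 0.017 over all genes, and 5 of 9 with an unadjusted limma p under 0.05, as had 29% of all genes. With array weights in the same model 4 of 9 were called lower, and so were 11.6% of all genes. Between the oligos 0 of 9 were called, 0 had an unadjusted limma p under 0.05 (17.4% of all genes did), and the background was 3.01% of genes called and 1.07% called lower. The median difference of ASO 445236 minus ASO 190401 was -0.12. The 95% intervals were as wide as -0.98 to 0.55 for Cdh5 and, where narrowest, -0.52 to 0.12 for Vwf. Differences within these intervals remain compatible with the data.

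**Figure D1:**
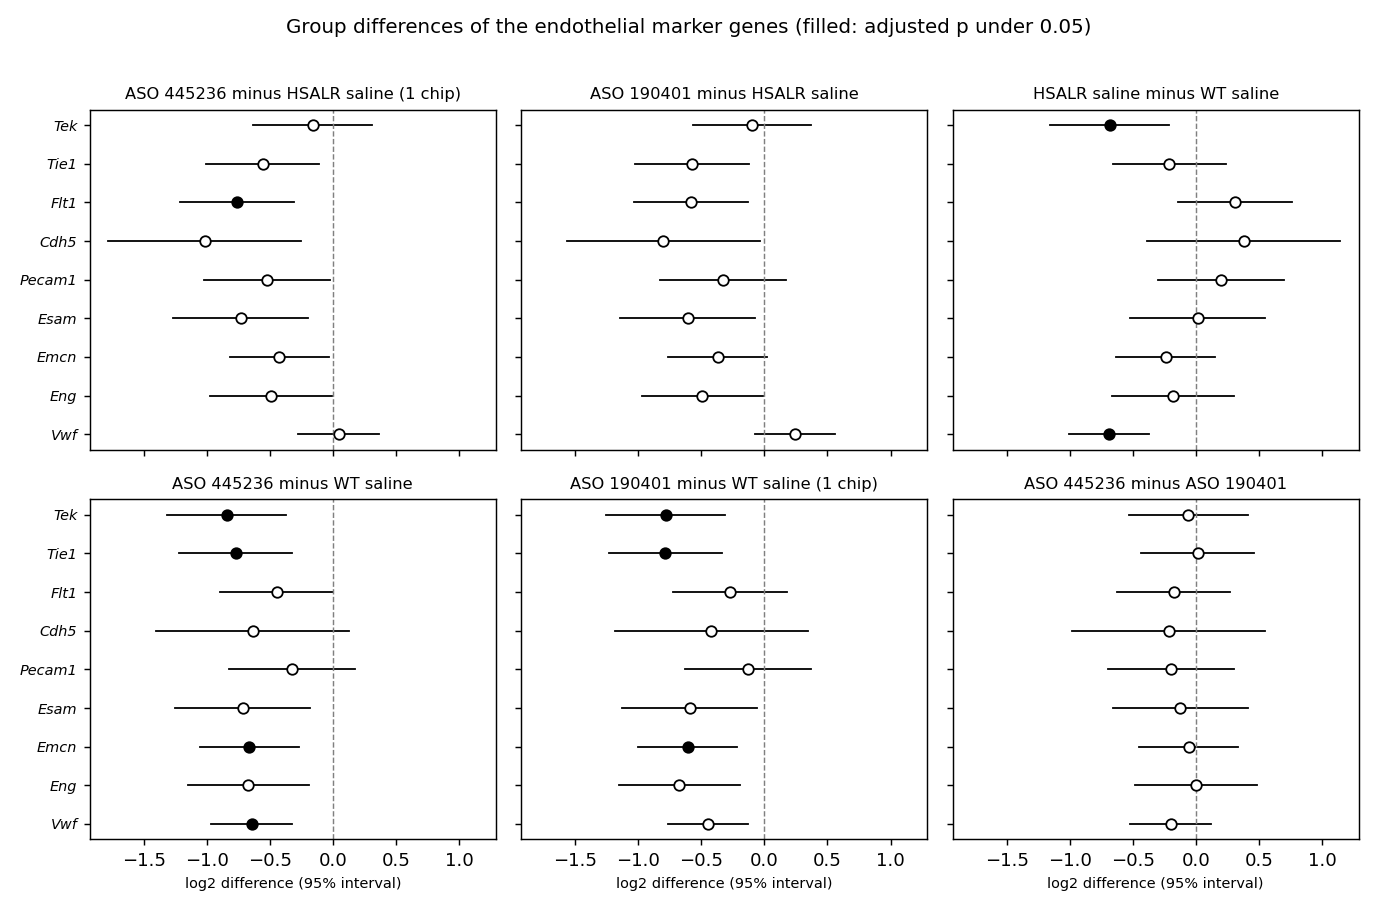
Log2 difference and 95% interval (x axis) of the 9 measured endothelial markers (y axis) in 6 comparisons; filled points have a limma adjusted p under 0.05. The differences of both oligo groups from WT all lie below 0, at -0.84 to -0.32 under ASO 445236 (4 called) and at -0.79 to -0.13 under ASO 190401 (3 called).

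These counts are small and move with single arrays. Against WT, ASO 445236 gave 2 lower without its replicate 1 or 3 or WT replicate 1 or 2, and 1 without its replicate 4. The share of all genes called lower was 2.45% to 5.25% in those fits. ASO 445236 gave 7 without its replicate 2, where 4.15% of all genes were called lower. ASO 190401 gave 1 without its replicate 1 or 2 or WT replicate 1, 2 or 4, and 0 without its replicate 4. In those fits 3.75% to 5.75% of all genes were called lower. HSALR saline against WT gave 1 when replicate 1 or 4 of either group was left out, where 10.4% to 14.2% of all genes were lower. Against HSALR saline, ASO 445236 gave 0 without its replicate 1, 3 or 4 or HSALR saline replicate 3 or 4. There 4.82% to 5.4% of all genes were called lower. It gave 2 without WT replicate 1 (7.65% of all genes) or 3 (6.72%), whose spread enters the model. Without its replicate 2 ASO 445236 gave 5, where 6.96% of all genes were called lower. ASO 190401 against HSALR saline gave 2 without ASO 445236 replicate 2 (7.79% of all genes called lower) or ASO 190401 replicate 3 (7.99%).

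The angiopoietin receptors Tek and Tie1 were both called lower than WT under each oligo. Tek encodes the receptor tyrosine kinase Tie2, which binds the angiopoietins and keeps vessels quiescent, and Tie1 its partner receptor. Both are on mouse chromosome 4, and the 300 bases around their annotated starts are shown with those of Emcn, the third gene lower than WT under both oligos, and Flt1, the gene lower under ASO 445236 than in HSALR saline. The sequences are from RefSeq (build GRCm38.p6), 5′ to 3′ on the gene's strand, from 250 bases before the start to 50 after it. Capitals mark the letters GGAAGT, one form of the motif bound by ETS factors, or their reverse complement ACTTCC. Other and shorter forms of that motif were not searched and are not marked.
Tek, chr4:94739039-94739338, plus strand: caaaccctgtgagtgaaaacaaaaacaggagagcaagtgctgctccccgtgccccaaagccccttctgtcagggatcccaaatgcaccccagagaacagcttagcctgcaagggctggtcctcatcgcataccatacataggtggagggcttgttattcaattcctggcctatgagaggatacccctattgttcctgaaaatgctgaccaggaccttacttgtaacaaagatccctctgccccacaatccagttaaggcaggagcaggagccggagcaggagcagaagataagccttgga
Tie1, chr4:118489800-118490099, minus strand: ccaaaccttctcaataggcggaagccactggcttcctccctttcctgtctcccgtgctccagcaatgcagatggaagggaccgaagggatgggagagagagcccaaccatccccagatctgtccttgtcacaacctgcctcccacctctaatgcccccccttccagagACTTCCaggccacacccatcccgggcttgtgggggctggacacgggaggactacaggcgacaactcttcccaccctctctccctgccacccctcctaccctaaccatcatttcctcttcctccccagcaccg
Emcn, chr3:137340828-137341127, plus strand: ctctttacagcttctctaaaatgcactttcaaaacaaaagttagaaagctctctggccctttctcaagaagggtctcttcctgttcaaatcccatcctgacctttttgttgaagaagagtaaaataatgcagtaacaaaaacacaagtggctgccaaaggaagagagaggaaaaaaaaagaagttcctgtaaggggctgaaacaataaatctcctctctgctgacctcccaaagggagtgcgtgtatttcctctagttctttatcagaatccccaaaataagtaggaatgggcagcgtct
Flt1, chr5:147725962-147726261, minus strand: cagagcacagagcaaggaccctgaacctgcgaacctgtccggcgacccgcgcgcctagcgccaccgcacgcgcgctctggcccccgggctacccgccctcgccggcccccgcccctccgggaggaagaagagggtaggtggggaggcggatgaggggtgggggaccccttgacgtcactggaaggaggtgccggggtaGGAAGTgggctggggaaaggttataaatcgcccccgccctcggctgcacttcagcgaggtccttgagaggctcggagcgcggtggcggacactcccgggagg

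RefSeq gave such a sequence for 6 of the 10 markers, Flt1, Kdr, Tek, Tie1, Emcn and Eng. GGAAGT, searched on both strands, was in 4 of the 6, Flt1 (position -52 from the start), Tie1 (-82), Eng (-53) and Kdr (-217), and in 23.8% of all 32851 windows of the same length. AGATAA, a form of the GATA motif, was in 1 of the 6, Tek (position 36), and in 11.2% of all windows. TATAAA was in 1 of the 6, Flt1 (position -31), and in 13.6% of all. The motifs shared no bases in these windows, and a match is a description of letters. Tek and Emcn, whose windows lack GGAAGT, and Tie1, whose window holds it, were all called lower than WT under both oligos.

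Tek stood at 7.84, 8.33, 7.59 and 7.49 under ASO 445236 and at 7.41, 8.0, 8.36 and 7.73 under ASO 190401. It stood at 7.46, 8.07, 8.29 and 8.06 in HSALR saline and at 9.10, 8.36, 8.41 and 8.75 in WT. All 12 HSALR arrays, treated or not, lay below the 4 WT arrays, although ASO 190401 replicate 3 and WT replicate 2 are the same at 2 decimals. Relative to WT, Tek fell to 55.8% under ASO 445236 (-0.84 ± 0.22, adjusted p = 0.0221), to 58.2% under ASO 190401 (-0.78 ± 0.22, adjusted p = 0.0325) and to 62.3% in HSALR saline (-0.68 ± 0.22, adjusted p = 0.0305). Against HSALR saline the differences were -0.16 (95% interval -0.63 to 0.31) under ASO 445236 and -0.098 (-0.57 to 0.37) under ASO 190401, neither called.

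Single arrays decided several of these calls. The ASO 445236 call was lost without its replicate 3 (adjusted p = 0.0752) or 4 (0.0683) or WT replicate 1 (0.0567) or 4 (0.0533), with alternatives for Tek there from 0.00913 to 0.0752. The ASO 190401 call was lost without its replicate 1 (0.109), 2 (0.0537) or 4 (0.0828) or WT replicate 1 (0.087) or 4 (0.0688), and with median scaling (0.0642) and without the intensity trend (0.0515), with alternatives from 0.0142 to 0.109. The HSALR saline call was lost without its replicate 1 (0.11) or 4 (0.0504) or WT replicate 1 (0.0892) or 4 (0.0687), with alternatives for Tek from 0.0208 to 0.11.

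Tie1 was above background on 2 of 4 arrays under ASO 445236, 3 of 4 under ASO 190401 and 4 of 4 in HSALR saline and in WT. It stood at 5.31, 5.92, 5.77 and 5.24 under ASO 445236, at 5.62, 5.73, 5.73 and 5.08 under ASO 190401, at 5.78, 5.74, 6.37 and 6.57 in HSALR saline, and at 6.42, 6.47, 6.35 and 6.06 in WT. All 8 oligo arrays lay below all 4 WT arrays, while HSALR saline was split, with replicates 3 and 4 within or above the WT values and replicates 1 and 2 among those of the oligo groups. Relative to WT, Tie1 fell to 58.7% under ASO 445236 (-0.77 ± 0.21, adjusted p = 0.0265) and to 58.0% under ASO 190401 (-0.79 ± 0.21, adjusted p = 0.0234). HSALR saline minus WT was -0.21 (95% interval -0.66 to 0.24, adjusted p = 0.499). Against HSALR saline Tie1 differed by -0.56 ± 0.21 under ASO 445236 (adjusted p = 0.094) and by -0.57 ± 0.21 under ASO 190401 (adjusted p = 0.0772), neither called, although the ASO 190401 arrays all lay below the HSALR saline ones. With array weights both were called (0.0453 and 0.0377). The call against WT was lost for ASO 445236 without its replicate 1 (0.0636) or 4 (0.0825) or WT replicate 2 (0.0661) or 3 (0.0531), without the filter (0.0532) and with the authors' deposited values (0.0648). It was lost for ASO 190401 without its replicate 4 (0.0847) or WT replicate 2 (0.0628) or 3 (0.0515), with position on the chip as a covariate (0.0529) and with the authors' deposited values (0.0612). Over all alternatives the adjusted p for Tie1 ran from 0.0203 to 0.0825 under ASO 445236 and from 0.0168 to 0.0847 under ASO 190401. Tie1 lies close to background, and the size of its difference from WT depends on the processing. With all arrays kept, the alternatives gave -1.11 to -0.49 under ASO 445236 and -1.14 to -0.50 under ASO 190401.

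The ligands of these receptors did not follow one pattern. Angpt1, the ligand that activates Tek and is made by cells around the vessel, was lower in HSALR saline than in WT (-1.03 ± 0.27, adjusted p = 0.00754). It was not called under ASO 445236 (-0.57 ± 0.27, adjusted p = 0.189) or ASO 190401 (-0.43 ± 0.27, adjusted p = 0.355) against WT. Angpt2, a context-dependent ligand released by endothelial cells themselves, differed from WT by -0.26 ± 0.18 under ASO 445236, 0.021 ± 0.18 under ASO 190401 and -0.035 ± 0.18 in HSALR saline, with 0 calls.

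**Figure D2:**
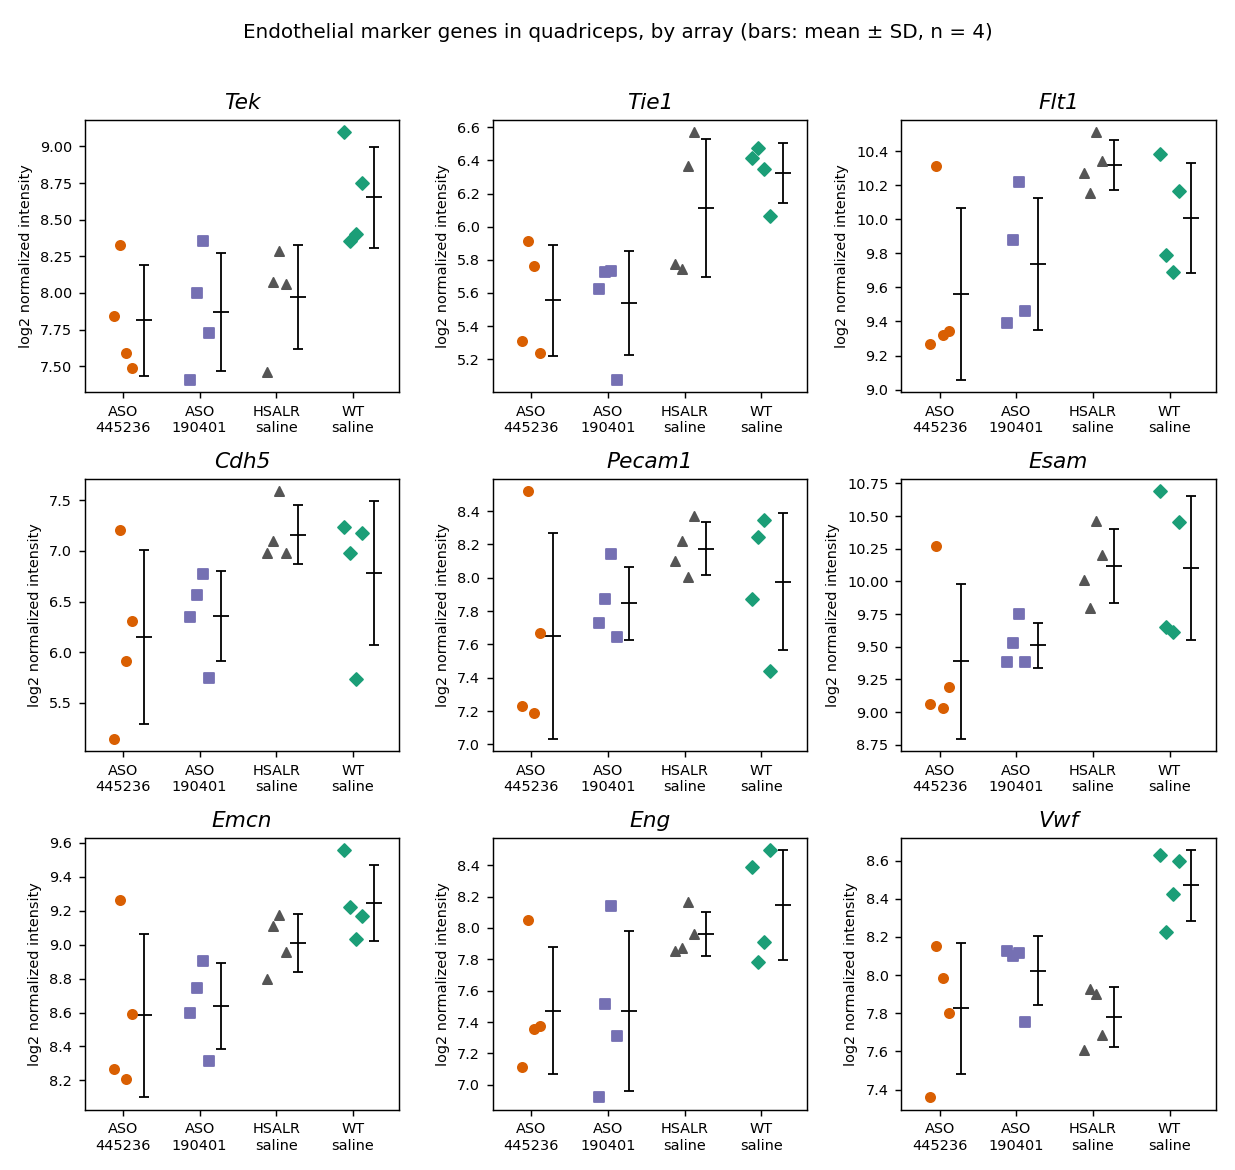
Log2 normalized intensity (y axis) of the 9 measured endothelial markers on each array, by group (x axis); points are arrays and bars the mean ± SD (n = 4). In Tie1 all 8 oligo arrays lie below the 4 WT arrays, in Vwf all 12 HSALR arrays lie below the 4 WT arrays, and ASO 445236 replicate 2 is the highest of its group in each panel.

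Flt1 encodes VEGF receptor 1, a high-affinity receptor that also exists as a soluble trap for the ligand. By its kept probe it stood at 9.26, 10.31, 9.32 and 9.34 under ASO 445236, at 9.39, 9.88, 10.22 and 9.46 under ASO 190401, at 10.27, 10.15, 10.51 and 10.34 in HSALR saline, and at 10.39, 9.79, 9.69 and 10.16 in WT. Under ASO 445236 3 arrays lay close together, below every HSALR saline array, and replicate 2 lay among the HSALR saline values. Flt1 fell to 59.1% of HSALR saline under ASO 445236 (-0.76 ± 0.22, adjusted p = 0.0247) and stood at 66.8% under ASO 190401 (-0.58 ± 0.22, adjusted p = 0.0752), which was not called. HSALR saline minus WT was 0.31 ± 0.22 (adjusted p = 0.305), and the groups overlapped. Against WT the oligo groups differed by -0.45 ± 0.22 for ASO 445236 (adjusted p = 0.2) and -0.27 ± 0.22 for ASO 190401 (adjusted p = 0.478).

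That call was lost with median scaling (-0.57, adjusted p = 0.0616), with position on the chip as a covariate (0.0709) and without ASO 445236 replicate 1 (0.0748), 3 (0.0775) or 4 (0.0758) or HSALR saline replicate 3 (0.0748) or 4 (0.0565), and its alternatives ran from 0.00104 to 0.0775. Under ASO 190401 Flt1 was called without ASO 445236 replicate 2 (0.0233), without ASO 190401 replicate 3 (0.0285), with array weights (0.0206) and in a model of those 2 groups alone (0.0179). Against WT, Flt1 under ASO 445236 was called without its replicate 2 (0.0211).

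Kdr encodes VEGF receptor 2, the main signalling receptor for VEGF in endothelium. Its only probe missed the detection threshold on 16 of 16 arrays. Its lowest detection p-value was 0.0739, in WT replicate 2, so no level of Kdr is reported. The second probe of Flt1 also missed the threshold on all 16 arrays, with a lowest detection p-value of 0.204. Among VEGF ligands Vegfa, made largely by the fibres, was not called in any of the 6 comparisons, with -0.41 ± 0.15 under ASO 445236 (adjusted p = 0.0805), -0.33 ± 0.15 under ASO 190401 (adjusted p = 0.163) and -0.29 ± 0.15 in HSALR saline (adjusted p = 0.151), each against WT. Vegfb, which binds Flt1, was lower than WT under ASO 445236 (-0.31 ± 0.074, adjusted p = 0.0118) and ASO 190401 (-0.33 ± 0.074, adjusted p = 0.00669). Vegfc, a lymphatic growth factor, was lower than WT under ASO 445236 (-0.70 ± 0.17), under ASO 190401 (-0.59 ± 0.17) and in HSALR saline (-0.73 ± 0.17), with adjusted p of 0.0111, 0.0282 and 0.003. Vegfd was higher than WT under ASO 445236 (0.67 ± 0.17, adjusted p = 0.0183) and in HSALR saline (0.85 ± 0.17, adjusted p = 0.00109). Over the list of ligands, co-receptors and signalling partners, 20 of 29 genes were measured. Of these 1 was higher and 2 lower than WT under ASO 445236, 1 and 3 under ASO 190401, and 1 and 3 in HSALR saline. Of all genes 11.3%, 10.4% and 27.2% were called in these comparisons, in either direction.

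The 3 genes of the cell contacts were not called in any of the 6 comparisons. Cdh5, VE-cadherin, which forms the adherens junctions of endothelium, stood at 5.15, 7.21, 5.92 and 6.31 under ASO 445236, above background on 3 of the 4 arrays. It stood at 6.35, 6.57, 6.77 and 5.75 under ASO 190401, at 6.98, 7.09, 7.59 and 6.97 in HSALR saline, and at 7.24, 6.97, 5.74 and 7.18 in WT. All 4 ASO 190401 arrays lay below all 4 HSALR saline arrays, and so did 3 of the 4 under ASO 445236, while WT replicate 3 lay among the lowest oligo arrays. Against HSALR saline Cdh5 differed by -1.01 ± 0.36 under ASO 445236 (adjusted p = 0.0732) and by -0.80 ± 0.36 under ASO 190401 (adjusted p = 0.152). The ASO 445236 difference was called without its replicate 2 (-1.37, adjusted p = 0.012) or WT replicate 3 (0.0391), and its alternatives ran from 0.012 to 0.232. The ASO 190401 difference was called in the model of 2 groups alone (0.0193).

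Esam, an adhesion molecule of endothelial tight junctions, stood at 9.06, 10.27, 9.03 and 9.19 under ASO 445236, at 9.39, 9.53, 9.75 and 9.38 under ASO 190401, at 10.01, 9.80, 10.46 and 10.20 in HSALR saline, and at 10.69, 9.65, 9.62 and 10.45 in WT. The ASO 190401 arrays all lay below the HSALR saline ones, and ASO 445236 did so except for replicate 2. WT was split into 2 high and 2 low arrays. The differences from HSALR saline were -0.73 ± 0.26 (adjusted p = 0.0658) under ASO 445236 and -0.61 ± 0.26 (adjusted p = 0.12) under ASO 190401. Esam was called under ASO 445236 without its replicate 2 (-1.02, adjusted p = 0.00396) or WT replicate 1 (0.0394) and with array weights (0.0221). Under ASO 190401 it was called without ASO 445236 replicate 2 (0.0461), with array weights (0.0388) and in the model of 2 groups alone (0.00563). Against WT Esam under ASO 445236 differed by -0.71 ± 0.26 (adjusted p = 0.08), called without its replicate 2 (0.00748) or WT replicate 3 (0.0459) and under no other of 28 alternatives.

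Pecam1, the adhesion molecule CD31, which platelets and leukocytes also carry, had 2 kept probes. By the brighter of them it averaged 7.65 ± 0.62 under ASO 445236, 7.85 ± 0.22 under ASO 190401, 8.17 ± 0.16 in HSALR saline and 7.98 ± 0.41 in WT, and the groups overlapped in each comparison. Its difference from HSALR saline was -0.52 ± 0.24 under ASO 445236 (adjusted p = 0.168), called only without ASO 445236 replicate 2 (-0.81, adjusted p = 0.00943) among the alternatives, and -0.33 ± 0.24 under ASO 190401 (adjusted p = 0.395). The other probe, above background on 2 of 4 arrays in each oligo group, differed from HSALR saline by -0.19 ± 0.27 under ASO 445236 and by -0.18 ± 0.27 under ASO 190401. The probes differed in sign for HSALR saline minus WT, at 0.20 ± 0.24 for the brighter and -0.13 ± 0.27 for the other, neither called.

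Emcn encodes endomucin, a sialomucin of capillary and venous endothelium that limits the adhesion of leukocytes. It stood at 8.27, 9.26, 8.21 and 8.59 under ASO 445236, at 8.59, 8.75, 8.90 and 8.31 under ASO 190401, at 8.80, 9.11, 9.18 and 8.96 in HSALR saline, and at 9.56, 9.22, 9.03 and 9.17 in WT. The ASO 190401 arrays all lay below the WT ones, and under ASO 445236 replicate 2 alone reached the WT values. Relative to WT, Emcn fell to 63.1% under ASO 445236 (-0.66 ± 0.19, adjusted p = 0.0284) and to 65.7% under ASO 190401 (-0.61 ± 0.19, adjusted p = 0.0446), while HSALR saline minus WT was -0.24 ± 0.19 (adjusted p = 0.375). Against HSALR saline the differences were -0.43 ± 0.19 (adjusted p = 0.148) and -0.37 ± 0.19 (adjusted p = 0.2), the first called without ASO 445236 replicate 2 (-0.65, adjusted p = 0.00763).

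The Emcn calls against WT were close to the threshold. For ASO 445236 the call was lost with median scaling (0.0828), in a model of 2 groups alone (0.0842), and without its replicate 1 (0.0733), 3 (0.109) or 4 (0.0563) or WT replicate 1 (0.0683) or 2 (0.0539). For ASO 190401 it was lost under 14 of 28 alternatives, which were median scaling (-0.39, adjusted p = 0.135), the authors' deposited values (0.0511), no filter on detection (0.0556), no intensity trend (0.0698), and leaving out its replicate 1 (0.0929), 2 (0.0689) or 4 (0.139), WT replicate 1 (0.109), 2 (0.0778) or 4 (0.0634), HSALR saline replicate 2 (0.0548), 3 (0.0513) or 4 (0.0571) or ASO 445236 replicate 4 (0.0559). The adjusted p for Emcn ran from 0.0015 to 0.109 and from 0.00926 to 0.139 over all alternatives.

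Eng encodes endoglin, a co-receptor for BMP and TGF-beta ligands. It averaged 7.47 ± 0.40 under ASO 445236, 7.47 ± 0.51 under ASO 190401, 7.96 ± 0.14 in HSALR saline and 8.14 ± 0.35 in WT. In both oligo groups 3 of 4 arrays lay below the lowest WT array, and replicate 2 under ASO 445236 and replicate 3 under ASO 190401 lay among the WT values. Against WT Eng differed by -0.67 ± 0.23 under ASO 445236 (adjusted p = 0.067) and by -0.67 ± 0.23 under ASO 190401 (adjusted p = 0.0694), neither called. Under ASO 445236 it was called without its replicate 2 (0.0221) or ASO 190401 replicate 1 (0.0482) or 3 (0.033), and under ASO 190401 without its replicate 3 (0.0126), without ASO 445236 replicate 2 (0.0462) and with array weights (0.0477). Against HSALR saline it differed by -0.49 ± 0.23 under ASO 445236 (adjusted p = 0.178) and by -0.49 ± 0.23 under ASO 190401 (adjusted p = 0.161). Neither was called, and of the 28 alternatives for each only 2 called Eng, both under ASO 190401, without its replicate 3 (0.0308) and with array weights (0.0442).

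Vwf, von Willebrand factor, tethers platelets and is enriched in venous endothelium. It was lower in HSALR saline than in WT, but these groups lie on different chips, and no alternative run separates chip from group. It stood at 7.36, 8.15, 7.98 and 7.80 under ASO 445236, at 8.12, 8.10, 8.11 and 7.76 under ASO 190401, at 7.61, 7.93, 7.90 and 7.69 in HSALR saline, and at 8.63, 8.23, 8.42 and 8.60 in WT. All 12 HSALR arrays lay below all 4 WT arrays. Relative to WT, Vwf fell to 62.0% in HSALR saline (-0.69 ± 0.15, adjusted p = 0.00225), a call kept under all 28 alternatives run, and to 63.9% under ASO 445236 (-0.65 ± 0.15, adjusted p = 0.0108), lost with median scaling (0.0596). Under ASO 190401, on the chip of WT, it stood at 73.4% (-0.45 ± 0.15, adjusted p = 0.0697) and was not called, except without ASO 445236 replicate 1 (0.0292). Against HSALR saline Vwf differed by 0.045 (95% interval -0.27 to 0.36) under ASO 445236 and by 0.24 (-0.075 to 0.56) under ASO 190401, and the ASO 190401 difference was called with median scaling (0.46, adjusted p = 0.0497).

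Platelets also carry Vwf RNA. Of 7 platelet markers 3 were measured, 0 were called in any comparison, and their summed intensity was 273 to 550 under ASO 445236, 232 to 357 under ASO 190401, 244 to 316 in HSALR saline and 281 to 740 in WT. Their part in the Vwf difference was not tested.

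Where the groups did not overlap, the counts were 3 of 9 markers lower than WT under ASO 445236 (5.86% of all genes lay apart in that direction), 4 of 9 under ASO 190401 (6.34%) and 2 of 9 in HSALR saline (12.4%). Against HSALR saline 0 of 9 lay apart under ASO 445236 (9.82% of all genes) and 3 of 9 under ASO 190401 (10.5%), and between the oligos 0 of 9 (4.95%). No marker lay wholly above in any of the 6 comparisons.

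The markers varied together from array to array. Over 16 arrays the 36 pairs of markers had Pearson correlations of 0.169 to 0.918 with a median of 0.652, and 15 pairs were above 0.7. On deviations from group means the range was 0.268 to 0.922 and the median 0.597, so the shared variation was also present within groups. Emcn had the highest mean correlation with the others (0.77) and Vwf (0.465) and Pecam1 (0.466) the lowest. These values describe 16 arrays that share groups, chips and normalization.

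A mean of the 9 markers, each in SD units from its own mean, gave a level per array. It was -1.48, 0.76, -1.06 and -0.92 under ASO 445236, -0.78, -0.20, 0.32 and -1.04 under ASO 190401, -0.045, 0.26, 0.79 and 0.51 in HSALR saline, and 1.31, 0.47, 0.29 and 0.82 in WT. ASO 445236 replicate 2 was the highest array of its group for 9 of 9 markers and lay among the saline arrays, and ASO 190401 replicate 3 was the highest of its group for 8 of 9.

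**Figure D3:**
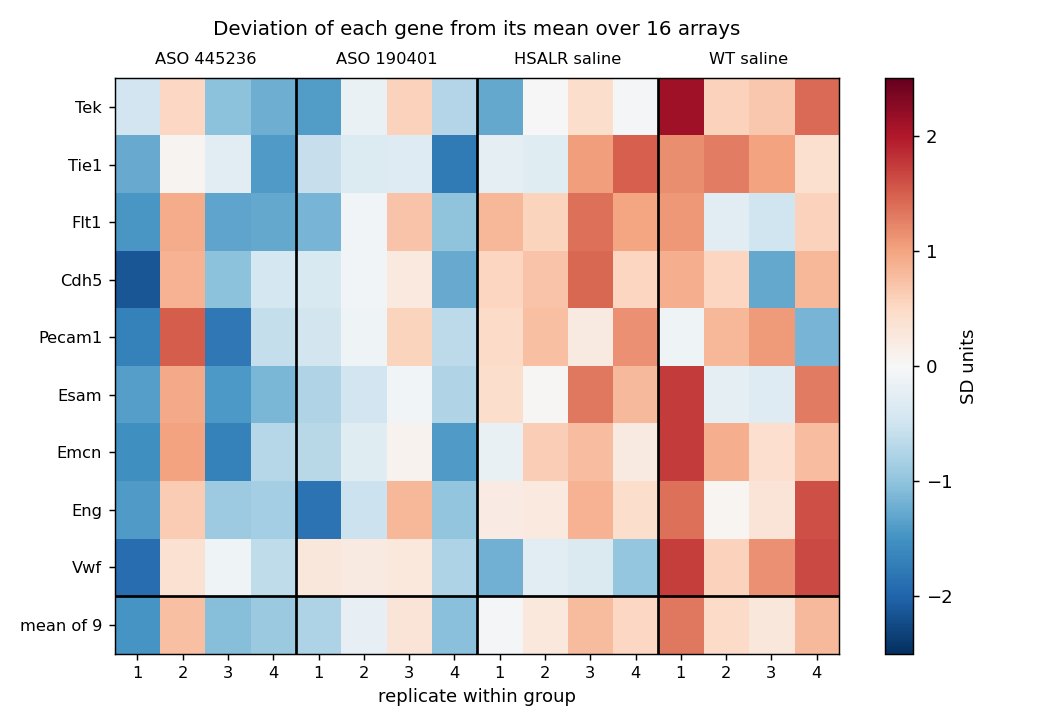
Deviation of each of the 9 markers (rows) from its mean over 16 arrays, in SD units (colour), by array (columns, replicates within group), with the mean of the 9 in the bottom row. ASO 445236 replicate 2 (mean 0.76) and ASO 190401 replicate 3 (0.32) stand above the other arrays of their groups.

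The genes whose level over 16 arrays was most like that mean, out of 8698 searched, were Arap3 (r = 0.948), Arhgef15 (0.948), Egfl7 (0.947), Cxcl12 (0.943), Mmrn2 (0.936) and Acta2 (0.93). On deviations from group means they were Arap3 (0.957), Robo4 (0.954), Arhgef15 (0.953), Garre1 (0.946), Cd300lg (0.946) and Adgrl4 (0.942). The 20 measured pan-endothelial genes outside the markers had a median correlation of 0.797 with the mean of the markers, beside -0.0209 over all genes. Cd34, which fibroblasts and fat precursors also express, had the lowest, 0.119.

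The other pan-endothelial genes were also lower than WT in part. Of 32 listed 20 were measured. Against WT 7 were lower and 0 higher under ASO 445236, where 5.04% of all genes were called lower. Under ASO 190401 5 were lower and 0 higher, beside 5.31% of all genes called lower. In HSALR saline 4 were lower and 0 higher, beside 27.2% of all genes called and 13.1% called lower. The medians were -0.68, -0.41 and -0.24, beside 0.0028, 0.026 and -0.017 over all genes. Plvap, a protein of the diaphragms of fenestrated and venous endothelium, was lower than WT in each group (-0.70 ± 0.13 under ASO 445236, -0.76 ± 0.13 under ASO 190401 and -0.70 ± 0.13 in HSALR saline), as was Ramp2, a partner of the adrenomedullin receptor (-0.68 ± 0.12, -0.66 ± 0.12 and -0.55 ± 0.12). Podxl, a surface sialomucin, was lower under ASO 445236 than in WT (-0.97 ± 0.21, adjusted p = 0.00654) and than in HSALR saline (-0.67 ± 0.21, adjusted p = 0.0402). Gpihbp1, which carries lipoprotein lipase to the capillary lumen, was lower under ASO 190401 than in HSALR saline (-0.75 ± 0.23, adjusted p = 0.035), as was Cd93 (-0.73 ± 0.23, adjusted p = 0.0343). Against HSALR saline the list had 1 of 20 lower under ASO 445236 and 2 of 20 under ASO 190401. Of all genes 6.73% and 7.71% were called lower there.

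By vessel type the lists were small and mixed. Against WT 11.3% of all genes were called under ASO 445236 (5.04% lower), 10.4% under ASO 190401 (5.31% lower) and 27.2% in HSALR saline (13.1% lower). Against HSALR saline 13.5% of all genes were called under ASO 445236 (6.73% lower) and 15.8% under ASO 190401 (7.71% lower). Of 10 capillary genes 7 were measured, with 2 lower than WT under ASO 445236, 3 lower under ASO 190401, and 1 higher and 1 lower in HSALR saline. Against HSALR saline 2 were lower under ASO 445236 and 3 under ASO 190401, and 0 higher. Cxcl12, a chemokine of capillaries and of the cells around them, was lower than WT under ASO 445236 (-1.42 ± 0.28, adjusted p = 0.00305) and ASO 190401 (-0.98 ± 0.28, adjusted p = 0.0297). Rgcc, a cell cycle regulator high in capillary endothelium, was higher in HSALR saline than in WT (0.65 ± 0.12, adjusted p = 0.000329) and lower under ASO 445236 (-0.94 ± 0.12, adjusted p = 1.9e-05) and ASO 190401 (-0.76 ± 0.12, adjusted p = 0.000192) than in HSALR saline. Of 9 measured arterial genes 1 was lower than WT under ASO 445236, the connexin Gja4 (-0.79 ± 0.25). Under ASO 190401 1 was higher than WT and 0 lower, the Notch ligand Jag2 (0.58 ± 0.17, adjusted p = 0.0373), and in HSALR saline 2 were lower, Gja4 (-0.80 ± 0.25) and another connexin, Gja5 (-0.64 ± 0.22). Against HSALR saline 0 of 9 were called under either oligo, and the list's median against WT was -0.11 under ASO 445236 and -0.14 under ASO 190401. Of 7 venous genes, Vwf included, 1 was lower than WT under each oligo and 3 in HSALR saline. Against HSALR saline 1 was higher under ASO 445236, Vcam1, and 0 were called under ASO 190401. The lists share genes. Vcam1 is also among the activation and satellite cell genes, and Gpihbp1 is in both the pan-endothelial and the capillary list. Genes of endothelial activation had 2 of 7 higher under ASO 445236 than in HSALR saline, the leukocyte adhesion receptors Icam1 (0.56 ± 0.17, adjusted p = 0.0316) and Vcam1 (0.50 ± 0.15, adjusted p = 0.0297), and 1 of 7 under ASO 190401, Icam1 (0.54 ± 0.17, adjusted p = 0.0359). Against WT the list had no gene higher: 3 of 7 were lower in HSALR saline, Icam1 (-0.51 ± 0.17), Thbd (-0.65 ± 0.21) and the vasoconstrictor gene Edn1 (-0.98 ± 0.21), and Edn1 alone was lower under ASO 445236 (-0.82 ± 0.21) and ASO 190401 (-0.68 ± 0.21). Icam1 differed from WT by 0.053 ± 0.17 under ASO 445236 and by 0.029 ± 0.17 under ASO 190401, neither called. Lymphatic markers were lower than WT in 3 of 4 cases in HSALR saline, 2 of 4 under ASO 445236 and 0 of 4 under ASO 190401, and 2 of 4 were higher under each oligo than in HSALR saline.

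**Figure D4:**
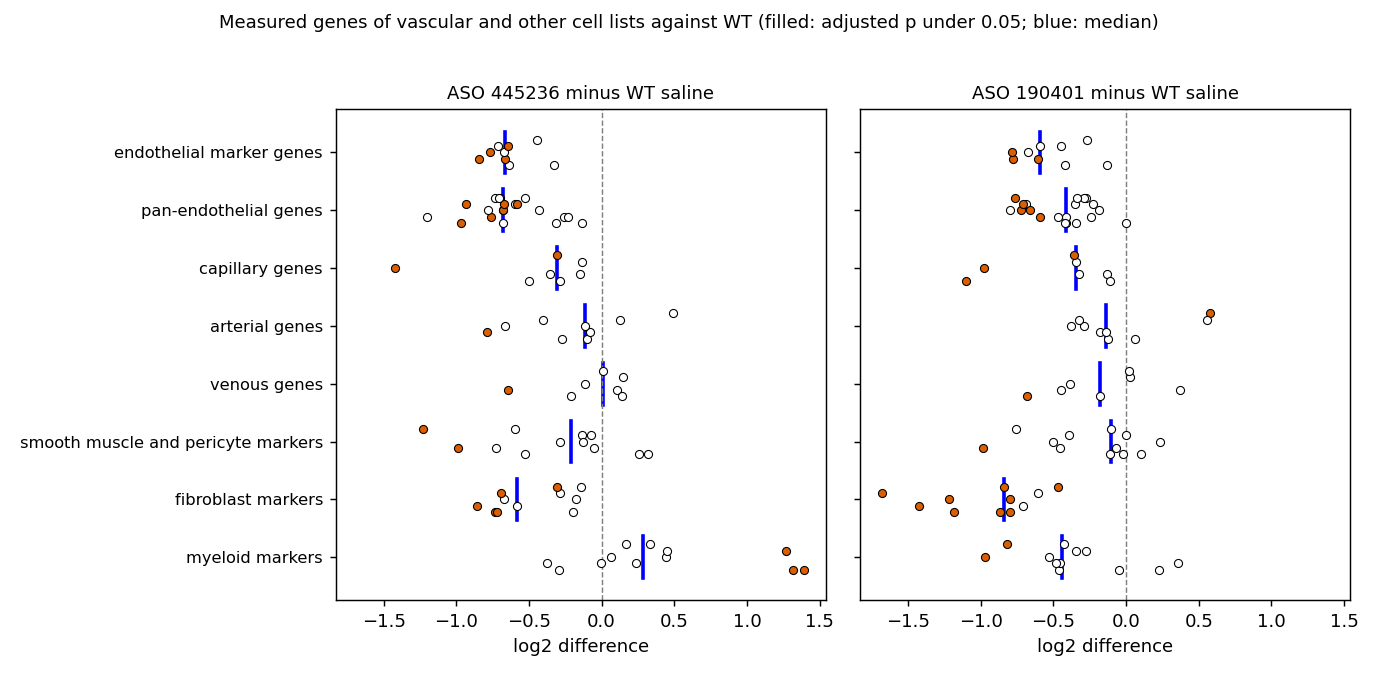
Log2 differences from WT (x axis) of measured genes in vascular and other cell lists (y axis), for ASO 445236 (left) and ASO 190401 (right); filled points have a limma adjusted p under 0.05 and blue lines are list medians. The endothelial markers have medians of -0.66 and -0.59, and myeloid markers 0.29 and -0.44.

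Markers of other cells moved beside the endothelial ones. The shares of all genes called against WT were 11.3% under ASO 445236 (5.04% lower), 10.4% under ASO 190401 (5.31% lower) and 27.2% in HSALR saline (13.1% lower). They were 13.5% under ASO 445236 (6.73% lower) and 15.8% under ASO 190401 (7.71% lower) against HSALR saline, and 3.01% between the oligos. Of 12 measured smooth muscle and pericyte markers 2 were lower than WT under ASO 445236, Acta2 (-0.99 ± 0.23) and Kcnj8 (-1.23 ± 0.29), and 1 under ASO 190401, Acta2 (-0.99 ± 0.23). In HSALR saline 0 were called against WT, and against HSALR saline 1 was lower under ASO 445236 and 0 called under ASO 190401. Against WT the list's median was -0.21 and -0.11, and its summed intensity 3246 to 5949 under ASO 445236, 3628 to 5353 under ASO 190401, 4986 to 6279 in HSALR saline and 4820 to 8426 in WT. Of 11 fibroblast markers 5 were lower than WT under ASO 445236, 9 under ASO 190401 and 7 in HSALR saline, with sums of 16435 to 20110, 14049 to 15740, 13671 to 15753 and, in WT, 21582 to 24504. Against HSALR saline 3 were higher under ASO 445236 and 2 lower under ASO 190401. Of 12 measured myeloid markers 7 were higher and 0 lower under ASO 445236 than in HSALR saline, and 3 were higher than in WT. Under ASO 190401 2 were higher than in HSALR saline and 2 lower than in WT, and in HSALR saline 2 were lower than in WT, where the median was -0.59 and all 12 differences lay below 0. Between the oligos 6 were higher under ASO 445236. The myeloid sums were 2775 to 4441 under ASO 445236, 1433 to 2178 under ASO 190401, 1030 to 1936 in HSALR saline and 1562 to 3380 in WT. Adipocyte markers (5 of 9 measured) had 3 higher under ASO 445236 than in HSALR saline and 2 lower under ASO 190401 and 3 lower in HSALR saline than in WT, with sums of 1112 to 3540 under ASO 445236, 548 to 1277 under ASO 190401, 489 to 1134 in HSALR saline and 967 to 2984 in WT. Of 8 Schwann cell markers 2 were measured and 3 of 7 satellite cell markers; against WT 1 and 2 Schwann cell markers were lower under ASO 445236 and ASO 190401, and 0 and 1 satellite cell markers higher. Of 10 lymphocyte markers, 9 of them on the array, 0 passed the filter, and of 3 measured erythroid markers 0 were called. The part of these cells in the endothelial differences was not tested.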

How the data were processed

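RNA (100 ng per sample) was measured on Illumina bead arrays. The authors deposited a table of non-normalized probe intensities, in which values below 0 show a subtracted background, with a detection p-value per probe and array, per the file headers. They also deposited a matrix of normalized intensities, used here as an alternative. The submitters' processing notes name affy, with no account of its use.

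Here intensities were background-corrected with normexp from the detection p-values (offset 16), quantile normalized and put on the log2 scale in limma 3.58.1 (R 4.3.3). Each gene was read by its brightest kept probe. A model of 4 group means over all 16 arrays gave 6 comparisons by moderated statistics with an intensity trend. P-values were adjusted by Benjamini-Hochberg per comparison over 8725 genes. The model was also run on simulated data in which genes vary independently. The markers vary together, so that run does not bear on the counts of markers called. Groups come from the labels, and replicate numbers only name arrays. No column of per-sample values was left unmapped.

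The markers and gene lists were chosen with earlier results of these data known. All markers are named. Of other lists, counts, medians and called genes beside a marker result are given, and Vegfa and Angpt2 were added after their values were seen. The genes most like the markers are the 6 with the highest correlation with the markers' mean. Alternatives varied the background correction, offset, normalization, filter, probe choice, trend, array weights, samples, chip position, the authors' values and each array. Chip position was entered as positions A to D against E to H. The groups of a chip are unevenly spread over these, so this covariate partly overlaps with group.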

Additional observations from a re-analysis of the deposited data

Results flagged for a closer look

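In groups of 4 arrays, a single array stood apart from the other 3 in 4 of 36 combinations of marker and group. This is by Dixon's test (gap to the nearest over the group's range, at the 95% level). The markers vary together over the same arrays, so the combinations are not independent and no chance rate is set beside them. Under ASO 445236, replicate 2 was the highest array for Flt1, at 10.31 against 9.26 to 9.34 in the others, and for Esam, at 10.27 against 9.03 to 9.19. Under ASO 190401, replicate 4 was the lowest array for Tie1, at 5.08 against 5.62 to 5.73, and for Vwf, at 7.76 against 8.10 to 8.12.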

How the results depend on the processing

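No sign was turned among the called differences of the 9 markers. Over all alternatives 1415 marker results stayed on their side of the threshold, 55 lost a call and 30 gained one. The cause was not tested. With median scaling the count of markers lower was 0 for ASO 445236 against HSALR saline (1 in the main model), 2 for ASO 445236 against WT (4) and 1 for ASO 190401 against WT (3), and 1 was higher for ASO 190401 against HSALR saline (0). The shares of all genes called lower in the first 3 were 2.95%, 1.88% and 3.23%. That scaling moved the median of all genes by 0.151, 0.147, 0.157 and 0.163 in these comparisons, and relative to the all-gene medians it gave (0.161, 0.149, 0.183 and 0.18) the markers' medians were -0.487, -0.656, -0.522 and -0.444. With array weights 3 were lower for ASO 445236 (9.27% of all genes) and 4 for ASO 190401 (11.6%) against HSALR saline. In the same comparisons, position on the chip as a covariate gave 0 for ASO 445236 (5.01%). The 2 groups alone gave 3 for ASO 190401 against HSALR saline (9.5%). Against WT, ASO 190401 gave 1 without the intensity trend (4.69% of all genes) and 1 with the authors' deposited values (4.65%). Leaving out 1 array gave 0 to 5 lower for ASO 445236 and 0 to 2 for ASO 190401 against HSALR saline, 1 to 7 and 0 to 4 against WT, and 1 to 2 for HSALR saline against WT. Shares of all genes called lower were then 4.82% to 7.65% and 5.64% to 8.74% against HSALR saline. They were 2.45% to 5.4% and 3.75% to 5.75% against WT, and 10.4% to 14.2% for HSALR saline against WT. Counts over all genes also moved. With median scaling 1529 were higher and 257 lower for ASO 445236 against HSALR saline (594 and 587 in the main model), 1938 and 296 for ASO 190401 against HSALR saline (706 and 673), 1455 and 164 for ASO 445236 against WT (545 and 440), and 1808 and 282 for ASO 190401 against WT (444 and 463). With the 2 groups alone, 272 were higher and 202 lower for ASO 445236 and 247 higher for ASO 190401 against WT, and array weights gave 1014 lower for ASO 190401 against HSALR saline. Without ASO 445236 replicate 3 there were 330 higher and 212 lower for ASO 445236 against WT. Between the oligos (170 higher and 93 lower), array weights gave 316 and 209, chip position 107 higher, median scaling 61 lower, no filter 60 lower, and leaving out 1 array as few as 64 higher and 38 lower. No paired analysis was possible because the labels carry no replicate numbers that pair arrays. Signal over background limits Kdr, Tie1 and Cdh5.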
